A study of Mus musculus with 14 samples.

Results

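The question was which endoderm and stem-cell programmes are held by mouse cells that carry Foxa2 because it was switched on by a drug, and which by cells that arrive at Foxa2 during differentiation. The comparison used the 2 libraries titled d2.Foxa2p and the 3 libraries titled d3.het, 5 of the 14 low-input RNA-seq libraries of the series, chosen by their titles alone. Forced cells, named d2-FVFp here (Foxa2-Venus fusion, positive), came from the TetON-Foxa2-Venus embryonic stem cell line T119, in which doxycycline drives a fusion of Foxa2 to the yellow fluorescent protein Venus. They were kept on gelatin in serum and LIF (leukaemia inhibitory factor, a cytokine that holds mouse stem cells undifferentiated), received 40 ng/ml doxycycline for 48 h and were sorted as Venus-positive on day 2. Naturally arising cells, named d3con, were Foxa2-Venus-KO/+, meaning that Venus replaced the coding region of 1 Foxa2 allele and the other allele was wild type. After 1 day on embryonic fibroblast feeders without LIF they were plated on feeders that secrete Wnt3a, in medium with 12 ng/ml Activin A, and Venus-positive cells were sorted on day 3. Each state had its own Foxa2-poor reference. For d2-FVFp it was d2-FVFn, 2 libraries of Venus-negative cells of the T119 line after the same doxycycline treatment, and for d3con it was d0con, 2 libraries of the undifferentiated Foxa2-Venus-KO/+ line sorted away from red-fluorescent feeders on day 0.

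These groups limit what a difference can be assigned to. T119 is 1 line, built by lentiviral insertion into stem cells that also carry a Sox17-Cherry reporter, and its Foxa2 counts include the fusion transcript. The d3con cells come from another parent line without that reporter, have 1 functional Foxa2 allele, and by the sample names represent clone C59 in replicates 1 and 3 and clone C63 in replicate 2. Line, alleles, day, LIF, Activin A, Wnt3a, feeders and the fusion protein all change together between d2-FVFp and d3con and cannot be told apart. Nothing in the labels says that replicates are separate differentiations, so p-values measure the spread between these libraries, which may be technical. In sorted bulk cells, fewer cells of a type and less RNA per cell cannot be told apart either.

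Foxa2 is a forkhead factor that can bind its sites in closed chromatin. In the embryo it is made in the anterior primitive streak and then in definitive endoderm, node, notochord and floor plate. Epiblast cells that become definitive endoderm leave the stem-cell state, pass through the streak under Nodal and Wnt signalling with T, Eomes and Mixl1 expressed, and then express Sox17, Foxa1, Gata4, Gata6 and Cxcr4, while anterior endoderm secretes the antagonists Cer1 and Dkk1. In the liver, Foxa factors act with Hnf4a on genes for plasma proteins.

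The forced libraries held 14142788 to 16860556 expected counts and the d3con libraries 19583326 to 23731094, and 13943 of 24054 genes entered the fit. Foxa2 (chr2:148042877-148046969, GRCm38) stood at 169 and 160 TPM (a relative abundance adjusted for gene length and library size) in the 2 d2-FVFp libraries and at 58.6, 34.8 and 54.5 TPM in d3con replicates 1, 2 and 3. It was at 2.99 and 2.01 TPM in d2-FVFn and at 0.13 and 0.14 TPM in d0con. Both Foxa2-positive states were thus far above their references, as the Venus sort would select, and the forced libraries lay above all natural ones. The family members differed in the other direction. Foxa1 was at 0.42 and 0.18 TPM in d2-FVFp against 28.0, 7.72 and 21.1 TPM in d3con, and Foxa3 at 10.5 and 8.92 TPM against 64.4, 10.1 and 66.6 TPM. Values below follow this replicate order.

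Several technical features moved with the groups. The d3con replicate 2 (clone C63) stood apart from its partners, with Pou5f1 at 319 TPM against 63.5 and 59.7, T at 131 TPM against 11.4 and 15.5, and less Hnf4a, Dkk1 and Foxa3. Fibroblast and feeder genes, 11 of them, summed to 56.0 to 332 TPM in d3con against 7.35 and 30.6 TPM in d2-FVFp, 4.69 and 16.4 TPM in d2-FVFn and 15.4 and 16.6 TPM in d0con. The collagen gene Col1a1 was at 180, 30.3 and 120 TPM in d3con and at 1.58 and 1.55 TPM in d2-FVFp, while Fap was at 0 or 0.03 TPM in all 5 libraries. Gapdh, at 3280 TPM in d3con replicate 1 and 461 and 320 TPM in the others, was uneven within the natural group. Reads were 75 bases long in d3con replicate 1 and 50 in the rest. The part of these features in the results was not tested.

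The 2 Foxa2-positive states differed across a large share of the genome. Genes were called where the adjusted p of edgeR's quasi-likelihood test was under 0.05 and the change over 2-fold. By this rule 2143 genes (15.4% of those tested) were higher in d2-FVFp than in d3con and 2190 (15.7%) were lower, and the median gene differed by -0.02 on the log2 scale. These 2 shares are the background for each list count between the states below. Between the 2 references, d2-FVFn and d0con, which share no library with that comparison, 888 genes (6.37%) were higher and 675 (4.84%) lower. Of the 4333 genes called between the states, 460 (10.6%) were called the same way between the references. The d2-FVFp and d3con libraries did not overlap, in either direction, for 9223 of the 13943 tested genes (66.1%). With each of the 9 libraries left out in turn, 1373 of the 2143 genes and 1276 of the 2190 kept their call every time. On the first principal component, which held 64.5% of the variance of log2 CPM values, the forced libraries lay at -50.7 and -37.8, near d2-FVFn at -74.9 and -61.6 and d0con at -74.5 and -70.7, and away from d3con at 130.2, 107.1 and 133. The second component (16.9%) held the forced libraries at 59.1 and 68.7, above all other groups, with d2-FVFn next at 9.8 and 19.4.

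**Figure D1:**
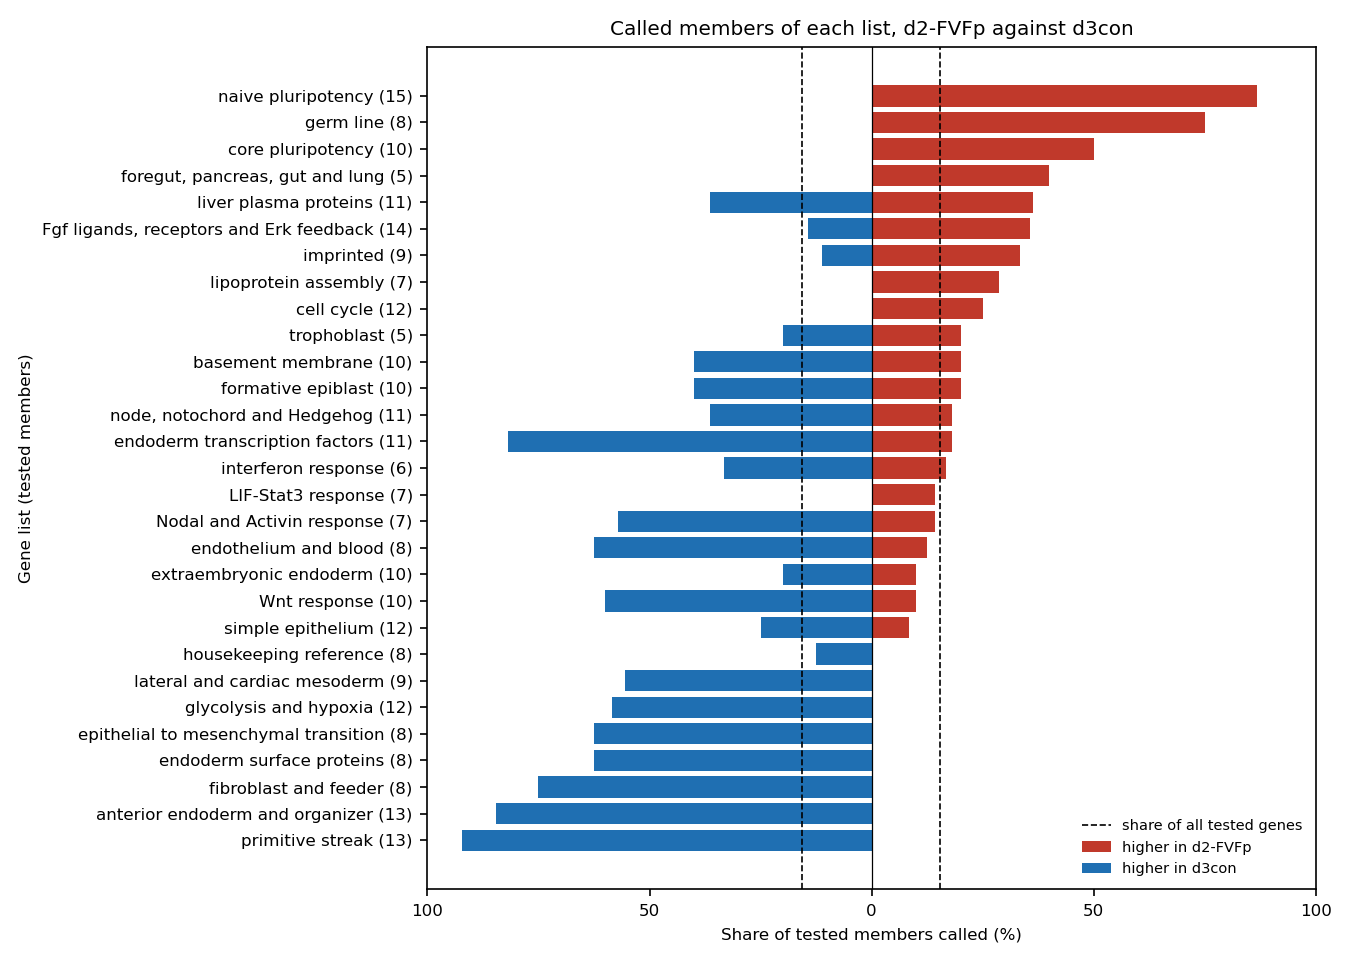
Share of the tested members of each gene list that were called between d2-FVFp and d3con, with genes higher in d2-FVFp to the right and genes higher in d3con to the left, in percent. Dashed lines mark the share of all 13943 tested genes called in each direction (15.4% and 15.7%). Naive pluripotency and germ-line lists extend to the right, and primitive streak, endoderm transcription factor and anterior endoderm lists extend to the left.

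The forced cells held the stem-cell programme and the d3con cells had lost most of it. Of 15 naive pluripotency genes, 13 were higher in d2-FVFp and 0 lower, with a median log2 difference of 2.78, and of 10 core pluripotency genes 5 were higher and 0 lower, with a median of 1.34. Pou5f1 (Oct4, the POU factor required for pluripotency) was at 1220 and 1020 TPM in d2-FVFp and at 63.5, 319 and 59.7 TPM in d3con, a log2 difference of 2.89 ± 0.61 (SE, adjusted p = 0.00382, edgeR). Its partner Sox2 was at 50.3 and 33.4 TPM against 4.99, 7.42 and 2.71 TPM. For both genes every forced library was above every natural one, although d3con replicate 2 held about 5 times the Pou5f1 of its partners.

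The widest gaps in the core list were in the embryo-stage chromatin proteins Dppa2 and Dppa4 and in the chromatin-associated coactivator Utf1. Dppa2 was at 129 TPM in both forced libraries and at 1.28, 1.08 and 1.29 TPM in d3con (log2 difference 6.64 ± 0.19, adjusted p = 2.97e-07, edgeR). Dppa4 was at 294 and 287 TPM against 6.02, 4.08 and 4.06 TPM, and Utf1 at 1210 and 717 TPM against 31.6, 58.6 and 22.4 TPM. These 3 genes had no overlap between the states, like 66.1% of all tested genes, and changed little against d2-FVFn, by -0.80, -0.42 and -0.03. Other core genes were held by both states. Nanog was at 58.6 and 57.7 TPM in d2-FVFp and at 40.2, 246 and 42.5 TPM in d3con (adjusted p = 0.252), so that the forced libraries lay inside the natural range. The zinc finger factor Sall4 and the RNA-binding protein Lin28a were slightly higher in d3con, by 0.91 and 0.47 on the log2 scale, under the 2-fold limit.

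Among naive genes, the zinc finger gene Zfp42 (Rex1) was at 670 and 477 TPM in the forced libraries and at 11.2, 10.9 and 10.3 TPM in d3con, a log2 difference of 5.66 ± 0.26 (adjusted p = 1.53e-06, edgeR). Fgf4, the ligand that drives exit from the naive state, was at 55.6 and 31.1 TPM against 2.01, 2.22 and 2.19 TPM. The nuclear receptor Esrrb was at 21.4 and 13.0 TPM against 1.92, 2.09 and 1.69 TPM. None of the 3 overlapped between the states, like 66.1% of all tested genes. The other 2 members of the list did not pass the test between the states, the Krüppel-like factor Klf5 (109 and 87.1 TPM against 109, 59.4 and 105 TPM) and the germ-cell and naive factor Prdm14 (1.51 and 2.08 TPM against 0.66, 1.25 and 1.95 TPM). Nr5a2, the weakest of the 13, lost its call without 6 of the 9 libraries, each d3con library among them, with adjusted p up to 0.327.

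The forced cells did not match the undifferentiated Foxa2-Venus-KO/+ cells in this programme. Summed over the 15 naive genes, expression was 5110 and 3570 TPM in d2-FVFp, 6980 and 5130 TPM in d2-FVFn, 15400 and 13600 TPM in d0con and 512 to 709 TPM in d3con. The Venus-negative cells of the T119 line were already below d0con for 11 of the 15 genes (4.84% of all tested genes were lower in that comparison), with a median of -2.06. Within the T119 line the Venus-positive cells then differed from the Venus-negative cells for 2 of the 15, the T-box factor Tbx3, which was higher, and Nr5a2, which was lower (4.63% and 0.681% of all tested genes were called). Both of those calls rest on 2 or 3 of the T119 libraries: without 1 of them at a time their adjusted p reached 0.114 and 0.131. All 15 fell from d0con to d3con, with a median of -5.04.

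Only the forced cells were grown in LIF. Of 7 tested genes of the LIF and Stat3 response list, 1 was higher in d2-FVFp and 0 were lower (15.4% and 15.7% of all tested genes), and the median was -0.08. The 1 gene was Junb, an AP-1 subunit, at 170 and 221 TPM in d2-FVFp and 84.0, 81.0 and 82.6 TPM in d3con. Junb also rose over d2-FVFn (59.5 and 72.2 TPM), by 1.5 ± 0.16 (adjusted p = 0.00209, edgeR), a call that held without each library in turn. Against d3con, its log2 difference without d2-FVFp replicate 2 was 0.99, just under the limit. The receptor gene Lifr and the feedback inhibitor Socs3 did not pass the test between the states.

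Germ-line genes followed the stem-cell genes, and their list shares Dppa3 and Prdm14 with the naive list. Of 8 members, 6 were higher in d2-FVFp than in d3con, 0 were lower, and the median was 4.43 (4.02 with Stra8, absent from d3con, at its counting bound). Mael, a piRNA pathway protein, was at 13.8 and 15.6 TPM against 0.17, 0.25 and 0.37 TPM. The helicase gene Ddx4 was at 16.9 and 20.3 TPM against 0.86, 1.03 and 0.67 TPM, and the meiotic chromosome axis gene Sycp3 at 26.1 and 25 TPM against 0.63, 1.77 and 0.98 TPM. In d2-FVFn Mael was at 14.9 and 16.6 TPM, Ddx4 at 14.9 and 20.5 TPM and Sycp3 at 25.7 and 27.4 TPM. Further genes entered by the size of their difference, the Zscan4 genes by that between the states and Zp3 by that between the responses. Zscan4c, of a gene family expressed in bursts in stem cell cultures and in the early cleavage embryo, was at 8.95 and 7.29 TPM and at 0 in all 3 d3con libraries, at least 67.7-fold higher (3 counts per library taken as the floor). Its relatives Zscan4f and Zscan4b went the same way, and because the copies are near-identical their separate values are uncertain. The egg coat gene Zp3 was at 17.3 and 10.6 TPM against 0.07, 0.15 and 0 TPM.

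**Figure D2:**
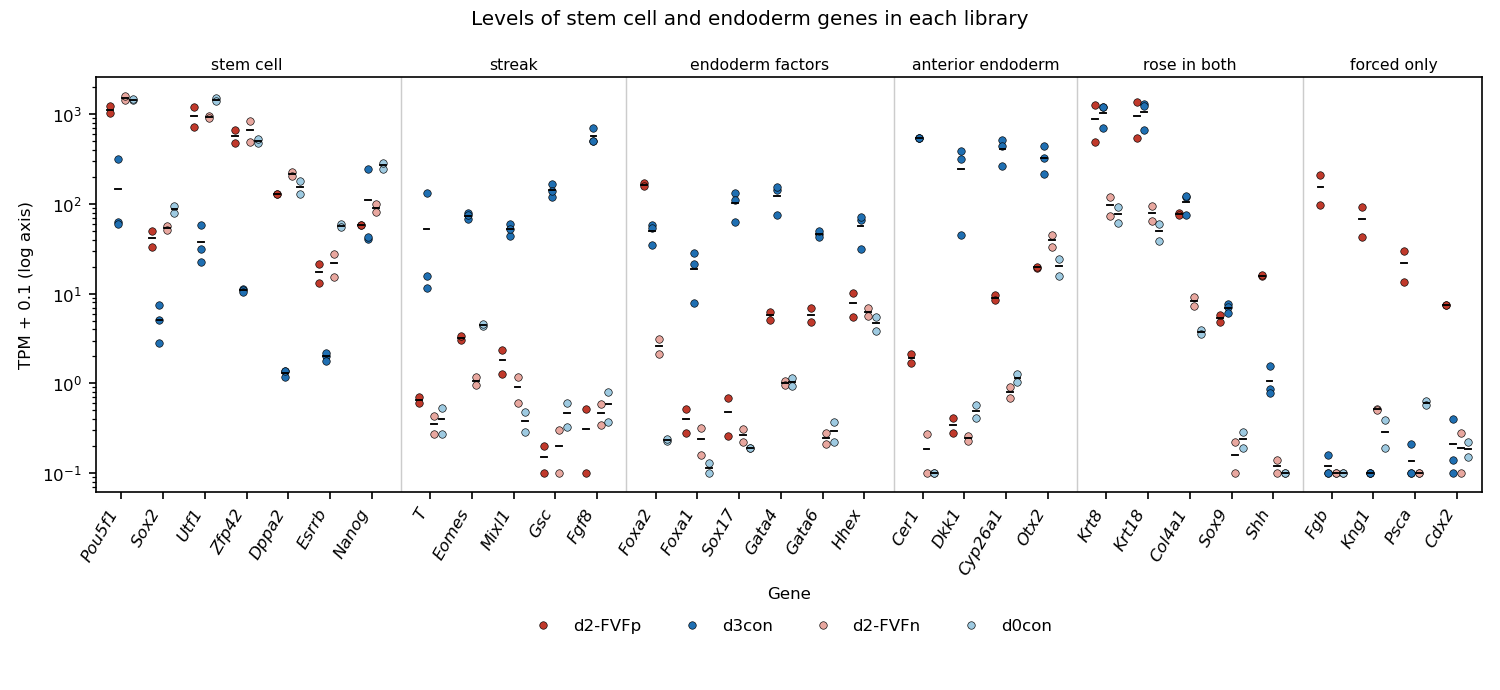
TPM plus 0.1 on a log axis for 31 genes in d2-FVFp, d3con and their references d2-FVFn and d0con, with each point 1 library and each short bar the group mean. Stem-cell genes such as Pou5f1 and Zfp42 sit high in d2-FVFp and low in d3con, streak and endoderm genes such as Fgf8, Sox17 and Cer1 sit low in d2-FVFp and high in d3con, and Fgb and Kng1 are high in d2-FVFp alone of the 4 groups.

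Genes of the formative epiblast, the stage between naive stem cells and the streak, were called in both directions, with a median of -1.02. Of 10, 2 were higher in d2-FVFp, near the share of all tested genes (15.4%), and 4 lower (15.7%). Fgf5, the marker ligand of this stage, was at 2.05 and 4.12 TPM in d2-FVFp and at 403, 435 and 485 TPM in d3con, a log2 difference of -7.20 ± 0.56 (adjusted p = 2.52e-05, edgeR). It was at 7.71 and 20.3 TPM in d2-FVFn and at 2.10 and 4.78 TPM in d0con. Forced cells thus lay below the Venus-negative cells (log2 difference -2.23, adjusted p = 0.0253, and up to 0.15 without d2-FVFn replicate 2 or either d2-FVFp library), while d3con rose 6.80 over d0con. The homeobox factor Otx2 was at 19.4 and 19.8 TPM against 323, 216 and 444 TPM in d3con. The DNA methyltransferase gene Dnmt3b fell within the T119 line, from 464 and 519 TPM to 218 and 178 TPM, with the call kept without each library in turn. The related Dnmt3a was higher in d2-FVFp than in d3con, at 76.0 and 63.9 TPM against 6.03, 17.0 and 7.13 TPM, and was higher still in d2-FVFn, at 161 and 129 TPM.

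The primitive streak programme was present in d3con and almost absent from d2-FVFp. Of 13 genes, 12 were lower in the forced cells and 0 higher, with a median of -4.97. For these 12 no forced library reached a natural one, while 66.1% of all tested genes had no overlap in either direction. Summed over the list, expression was 15.6 and 19.8 TPM in d2-FVFp, 6.99 and 9.93 TPM in d2-FVFn, 16.0 and 20.4 TPM in d0con and 1130 to 1480 TPM in d3con. The ligand gene Fgf8 was at 0 and 0.42 TPM in d2-FVFp and at 501, 702 and 505 TPM in d3con (log2 difference -11.22 ± 0.48, adjusted p = 1.1e-06, edgeR). The size of that difference rests on the few counts in d2-FVFp: it was -15.53 without d2-FVFp replicate 2 and -10.38 without replicate 1. The homeobox gene Gsc, a marker of the anterior streak, was at 0 and 0.10 TPM, which is 1 count in all, against 166, 120 and 138 TPM, a ratio of 2740 with a 95% counting interval of 492 to 108000. The mesoderm factor T (Brachyury) was at 0.60 and 0.51 TPM against 11.4, 131 and 15.5 TPM, so the natural group itself spanned an order of magnitude, with clone C63 highest. Among streak genes, 2 passed the test over d2-FVFn (0 with all 14 libraries in the fit). Eomes, a T-box factor of the streak and definitive endoderm, was at 2.98 and 3.23 TPM in d2-FVFp and at 1.09 and 0.86 TPM in d2-FVFn (log2 difference 1.61 ± 0.21, adjusted p = 0.00378, edgeR), yet d0con, with Foxa2 at 0.13 and 0.14 TPM, held 4.23 and 4.53 TPM and d3con 78.3, 67.3 and 75.8 TPM. Lhx1, a LIM factor of the anterior streak and node, was at 2.35 and 1.16 TPM in d2-FVFp, 0.08 and 0.28 TPM in d2-FVFn and 202, 234 and 254 TPM in d3con, and its call over d2-FVFn was lost without d2-FVFn replicate 1 (adjusted p = 0.0744).

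Endoderm transcription factors showed the same order with a few exceptions. Of 11 genes, 9 were lower in d2-FVFp than in d3con and 2 higher (15.7% and 15.4% of all tested genes), and the median was -3.27. Without either d2-FVFp library only 10 passed the filter, so the count of higher genes is a description only. Sox17 (chr1:4490928-4497426), the SoxF factor that marks definitive endoderm, was at 0.16 and 0.59 TPM in d2-FVFp and at 131, 62.4 and 110 TPM in d3con, a log2 difference of -8.11 ± 0.54 (adjusted p = 1.1e-05, edgeR). Its level in d2-FVFn was 0.21 and 0.12 TPM and the forced response did not pass the test (adjusted p = 0.417). The nuclear receptor Hnf4a was at 0.09 and 0.10 TPM against 9.91, 1.62 and 9.01 TPM. The homeobox factor Hhex was at 10.1 and 5.35 TPM against 65.4, 31.6 and 70.9 TPM, with 6.75 and 5.59 TPM already in d2-FVFn. None of these overlapped between the states, like 66.1% of all tested genes. The call of Foxa3 was lost without either d2-FVFp library (adjusted p up to 0.102), and its forced libraries overlapped d3con replicate 2.

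The Gata factors rose over d2-FVFn in the forced cells, to levels unlike those of d3con. Gata6, a zinc finger factor of mesendoderm and primitive endoderm, was at 6.73 and 4.71 TPM in d2-FVFp, 0.11 and 0.18 TPM in d2-FVFn, 46.4, 42.6 and 50.4 TPM in d3con and 0.27 and 0.12 TPM in d0con. It rose 5.17 ± 0.38 in the forced response (adjusted p = 0.000513, edgeR) and 7.63 ± 0.34 in the natural one (adjusted p = 1.09e-06, edgeR), and the difference of -2.46 between the responses was itself called, except without d2-FVFn replicate 2 (adjusted p = 0.162). Gata4 was at 6.21 and 5 TPM in d2-FVFp, 0.95 and 0.85 TPM in d2-FVFn and 142, 75.9 and 153 TPM in d3con. It rose 2.57 in the forced response, a call lost without either d2-FVFn library (adjusted p up to 0.0682), and 6.83 in the natural response. Gata5 went the other way, at 1.99 and 1.66 TPM in d2-FVFp and at 0, 0.03 and 0 TPM in d3con, which is 1 count, a ratio of 199 with a counting interval of 34.9 to 7950. Prdm1, a repressor of endoderm and germ-line precursors, moved in opposite directions. It was at 2.57 and 2.45 TPM in d2-FVFp, below its 7.36 and 8 TPM in d2-FVFn, and at 20.5, 22.8 and 26.0 TPM in d3con, above its 4.53 and 5.26 TPM in d0con.

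Of 13 anterior endoderm and organizer genes, 11 were lower in d2-FVFp than in d3con and 0 higher (median -4.16). Against d2-FVFn, 5 of the 13 rose and 0 fell (4.63% and 0.681% of all tested genes), but the count of risers was 2 without any one of the 4 T119 libraries and 3 with all 14 libraries in the fit. Cer1 (chr4:82881751-82885151), a secreted antagonist of Nodal, Bmp and Wnt, was at 2.03 and 1.59 TPM in d2-FVFp, 0 and 0.17 TPM in d2-FVFn, 545, 544 and 548 TPM in d3con and 0 in both d0con libraries. Against d2-FVFn, with 3 counts in all, the ratio was 20.1 with a counting interval of 6.50 to 101, and against d0con the d3con level was at least 3310-fold higher. Both states thus rose over their references, and d2-FVFp lay 8.31 ± 0.28 below d3con on the log2 scale (adjusted p = 9.38e-07, edgeR). Cyp26a1, the enzyme that degrades retinoic acid, was at 9.46 and 8.43 TPM in d2-FVFp, 0.59 and 0.82 TPM in d2-FVFn and 514, 264 and 440 TPM in d3con, rising 3.57 ± 0.45 in the forced response (adjusted p = 0.00318, edgeR) with every library left out in turn. The Wnt antagonist Dkk1 was at 0.18 and 0.31 TPM in d2-FVFp against 385, 44.5 and 313 TPM and was not called over d2-FVFn (0.16 and 0.13 TPM). Sfrp5, another Wnt antagonist, was at 0.86 and 0.79 TPM against 188, 40.2 and 175 TPM. Frzb rested on 9 counts in d2-FVFp and 0 in d2-FVFn, at least 1.86-fold, and its call was lost without any one of 6 libraries, with adjusted p up to 0.133.

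Thyrotropin-releasing hormone, Trh, was abundant in both states. It was at 1450 and 1740 TPM in d2-FVFp, 404 and 599 TPM in d2-FVFn, 4240, 3010 and 4400 TPM in d3con and 618 and 1580 TPM in d0con. It rose by 1.60 in the forced response and by 1.61 in the natural one, and the difference between the responses was -0.01 ± 0.53. The forced call was lost without any one of the 4 T119 libraries (adjusted p up to 0.206). Chrd, the Bmp antagonist chordin, was at 6.24 and 5.79 TPM in d2-FVFp and at 9.09, 20.1 and 6.90 TPM in d3con, and rose over 0.35 and 0.94 TPM in d2-FVFn and over 0.90 and 0.42 TPM in d0con.

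Surface proteins by which endoderm is commonly sorted were mostly lower in the forced cells. The chemokine receptor Cxcr4 was at 0.67 and 0.25 TPM in d2-FVFp and at 49.6, 28.0 and 52.8 TPM in d3con (log2 difference -6.64 ± 0.51, adjusted p = 2.22e-05, edgeR). The receptor tyrosine kinase Kit was at 24.3 and 20.4 TPM against 86.3, 77.7 and 142 TPM, and Emb (embigin) at 209 and 285 TPM against 1790, 1320 and 2200 TPM. The adhesion molecule Epcam was at 222 and 175 TPM against 202, 182 and 199 TPM and did not separate them. In all, 5 of 8 surface genes were lower in d2-FVFp and 0 higher, with a median of -1.97.

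To set the programmes each state gained against its own reference side by side, the forced response (d2-FVFp against d2-FVFn) and the natural response (d3con against d0con) were taken from the same fit; they share no library. In the forced response 646 genes rose (4.63%) and 95 fell (0.681%), and in the natural response 3060 rose (21.9%) and 2225 fell (16.0%). The spread in this fit was estimated over all 9 libraries, the d3con clones included. With only d2-FVFp and d2-FVFn in the fit, 901 genes rose and 190 fell in the forced response. Of the 3060, 359 (11.7%) also rose in the forced response, 24 (0.784%) fell and 2677 (87.5%) were not called. Of the 10883 genes that did not rise in the natural response, 287 (2.64%) rose in the forced one. Seen from the other side, 359 of the 646 forced risers (55.6%) rose in the natural response, 68 (10.5%) fell and 219 (33.9%) were not called. Over the 3060 natural risers the median change was 2.14 in the natural response and 0.36 in the forced one. Of the 2225 natural fallers 35 (1.57%) fell in the forced response and 68 (3.06%) rose, and their median was -1.96 against -0.18. These overlaps depend on single libraries, of the small T119 groups and of d3con. With each of the 9 libraries left out in turn, 92 of the 646 forced risers kept their call every time. The shared count ran from 76, without d2-FVFn replicate 1, to 510, without d3con replicate 2.

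**Figure D3:**
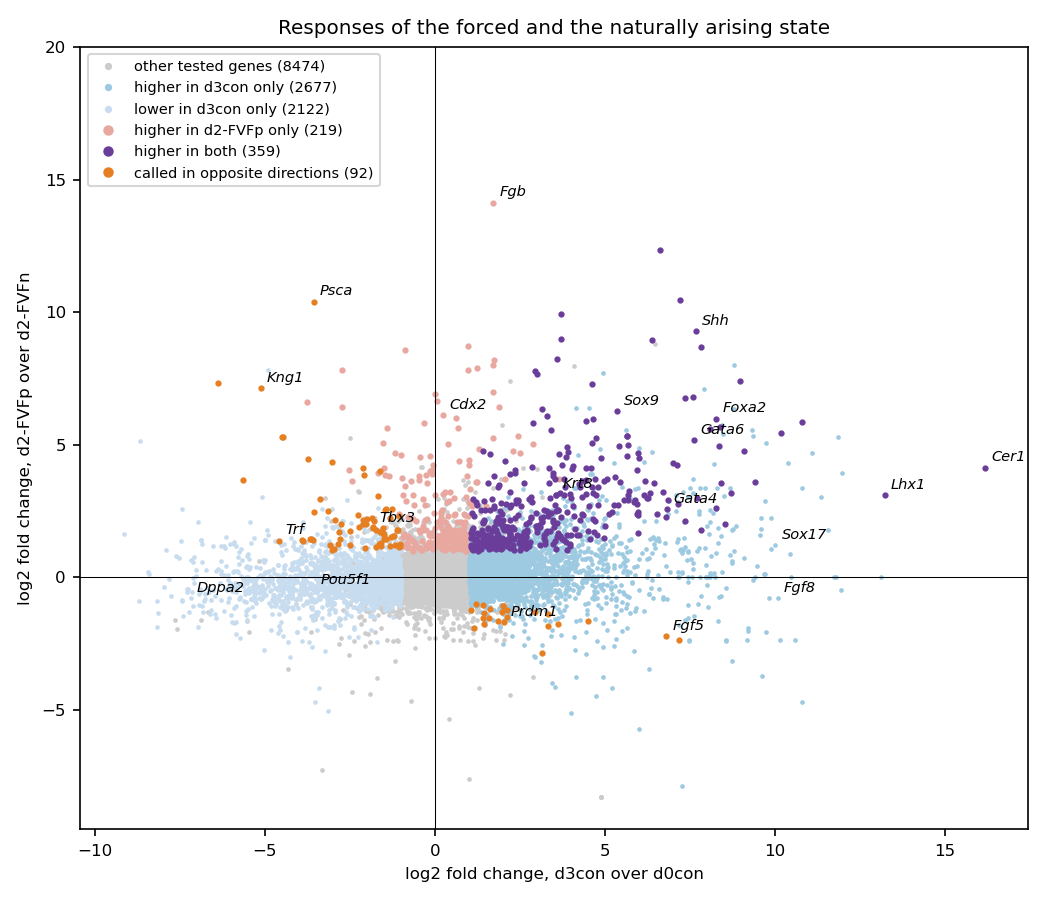
Log2 fold change of each of the 13943 tested genes in the natural response (d3con against d0con, horizontal axis) and in the forced response (d2-FVFp against d2-FVFn, vertical axis), coloured by call. The 359 genes higher in both lie in the upper right, the 2677 higher in the natural response alone spread along the horizontal axis, and 219 genes rise in the forced response alone.

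Among the shared risers were epithelial keratins and basement membrane collagens. Krt8, the keratin of simple epithelia, was at 487 and 1280 TPM in d2-FVFp, 72.8 and 120 TPM in d2-FVFn, 1210, 700 and 1190 TPM in d3con and 60.7 and 91.8 TPM in d0con. Its partner Krt18 was at 542 and 1370 TPM in d2-FVFp and 1300, 671 and 1220 TPM in d3con. For both genes the forced and natural libraries overlapped, both responses passed the test, and the differences between responses (-0.43 ± 0.61 and -0.72 ± 0.61) did not. The forced calls were lost without d2-FVFn replicate 1 and, for Krt8, also without d2-FVFn replicate 2, with adjusted p of up to 0.0787. Krt7 rose in both with every library left out in turn, to 84.9 and 155 TPM in d2-FVFp and 74.4, 66.7 and 77.3 TPM in d3con. Col4a1, a chain of collagen IV, was at 78.5 and 74.5 TPM in d2-FVFp over 7.14 and 9.09 TPM in d2-FVFn, and at 120, 74.6 and 122 TPM in d3con over 3.83 and 3.48 TPM in d0con. Its responses were 3.17 ± 0.27 (adjusted p = 0.000799, edgeR) and 4.66 ± 0.28 (adjusted p = 3.81e-06, edgeR), and the difference of -1.49 was called, as was that of its neighbour Col4a2 (-1.34, lost without d0con replicate 2, d2-FVFn replicate 2 or d2-FVFp replicate 1).

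The shared risers with the largest smaller response were led by Egflam, an extracellular matrix protein. It was at 5.55 and 9.54 TPM in d2-FVFp, 0.07 and 0.06 TPM in d2-FVFn, 10.6, 11.6 and 16.2 TPM in d3con and 0.11 and 0.02 TPM in d0con. Sox9, a factor of foregut, pancreas and notochord, was at 4.74 and 5.68 TPM in d2-FVFp and 7.62, 6.94 and 5.95 TPM in d3con, from under 0.2 TPM in each reference library. The phosphatase and transcription cofactor Eya2 was at 6.20 and 9.85 TPM and at 18.1, 7.76 and 14.6 TPM, and the scaffold protein Nedd9 at 8.20 and 17.7 TPM and at 24.6, 12.9 and 31.6 TPM. For these 4 genes the forced call held without each library in turn, and the difference between the responses was not called. The Vegf receptor gene Flt1 also rose in both, to 8.40 and 13.1 TPM in d2-FVFp and to 84.2, 61.9 and 94.3 TPM in d3con, but by 3.40 ± 0.60 less in the forced response (adjusted p = 0.00293, edgeR). Tph1, an enzyme on the path from tryptophan to serotonin, was at 8.45 and 8.98 TPM in d2-FVFp and at 155, 29.3 and 171 TPM in d3con. Its forced call was lost without any one T119 library (adjusted p up to 0.116, edgeR).

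Node, notochord and Hedgehog genes were called in both directions. Of 11 tested, 2 were higher in d2-FVFp than in d3con, near the share of all tested genes (15.4%), and 4 lower (15.7%). Sonic hedgehog, Shh, was at 15.5 and 16.1 TPM in d2-FVFp, 0 and 0.04 TPM in d2-FVFn, 0.76, 1.46 and 0.69 TPM in d3con and 0 in d0con. It was thus among the shared risers but 3.96 ± 0.41 higher on the log2 scale in the forced cells (adjusted p = 0.000148, edgeR). Genes downstream of the ligand were not called in the forced response. The Hedgehog receptor and target Ptch1 was at 7.24 and 6.49 TPM in d2-FVFp and 8.17 and 7.02 TPM in d2-FVFn, and the target Gli1 at 4.06 and 2.15 TPM and 8.82 and 5.35 TPM. Noto, a notochord factor, was at 0.51 and 0.36 TPM in d2-FVFp against 1.46, 5.40 and 1.52 TPM in d3con and 0 in all 4 reference libraries, and its call between the states was lost without either d2-FVFp library (adjusted p up to 0.156). Foxj1, which drives motile cilia, was at 18.9 and 21.0 TPM in d2-FVFp and at 6.07, 57.5 and 4.38 TPM in d3con, with clone C63 above and its partners below the forced libraries.

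Fgb, Kng1 and Psca, genes of liver and gut products, were high in d2-FVFp and at or near 0 in d3con. Of 17 liver plasma protein genes, 11 were tested between the states, of which 4 were higher in d2-FVFp and 4 lower. Fgb and Kng1 passed the filter only through d2-FVFp, and without either d2-FVFp library 8 were tested and 1 was higher, so the count is a description only. The number lower was 2 without d3con replicate 1 or 3. Fgb (chr3:83042246-83049863), the fibrinogen beta chain, was at 97.2 and 208 TPM in d2-FVFp and at 0, 0.06 and 0 TPM in d3con, which is 1 count against 3940, a ratio of 8090 with a counting interval of 1450 to 320000. Its partner chains did not follow. Fga was at 0 in all 5 libraries, and Fgg was at 1.43 and 1.52 TPM against 1.08, 0.70 and 0.91 TPM. Kng1 (chr16:23058220-23082078), the kininogen from which bradykinin is cut, was at 43.0 and 92.5 TPM and at 0 in all 3 d3con libraries, at least 486-fold higher, with 0.42 and 0.41 TPM in d2-FVFn. Trf, the iron carrier transferrin, was at 37.8 and 49.0 TPM against 0.18, 0.61 and 0.21 TPM, but d2-FVFn already held 15.7 and 16.0 TPM and d0con 7.47 and 6.29 TPM. Its rise in the forced response was 1.38, lost without any one of 6 libraries (adjusted p up to 0.158), and it fell by 4.59 in the natural one. Vtn (vitronectin) was at 1.79 and 2.72 TPM against 0.15, 0.60 and 0.09 TPM.

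The natural cells held other members of the same plasma protein list. Proc, the anticoagulant protein C, was at 24.6, 1.47 and 20.5 TPM in d3con and 2.96 and 1.63 TPM in d2-FVFp, with clone C63 below the forced libraries, and its call was lost without d3con replicate 1, replicate 3 or either d2-FVFp library (adjusted p up to 0.177). Coagulation factor F10 was at 4.52, 0.84 and 3.11 TPM in d3con and 0 in both forced libraries, at least 20.2-fold. The protease inhibitor precursor Ambp was at 13.5, 0.47 and 6.51 TPM against 0, at least 23.6-fold, with its call lost without d3con replicate 1, replicate 3 or either d2-FVFp library (adjusted p up to 0.0888). Coagulation factor F5 was at 7.99, 5.78 and 11.3 TPM against 1.08 and 1.88 TPM, a call lost without d2-FVFp replicate 1 (adjusted p = 0.0513). Albumin (Alb), Fga and F7 were at 0 in all 5 libraries and Plg at 0 or 0.06 TPM, and these hepatocyte products were detected in neither state beyond 1 library.

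In the foregut, pancreas, gut and lung list, 5 of 17 genes passed the filter, of which 2, Psca and Cdx2, were higher in d2-FVFp. Both passed the filter only through d2-FVFp, and without either d2-FVFp library 3 genes were tested and 0 were higher. Psca (chr15:74714839-74717065), a surface protein of stomach and bladder epithelium, was at 13.4 and 30.1 TPM in d2-FVFp, 0 in both d2-FVFn libraries, 0.11, 0 and 0 TPM in d3con and 0.53 and 0.47 TPM in d0con. Against d2-FVFn it was at least 57.6-fold higher. Cdx2, a homeobox factor of hindgut and trophoblast, was at 7.44 and 7.29 TPM against 0.04, 0 and 0.30 TPM in d3con and 0 and 0.18 TPM in d2-FVFn, and its forced call was lost without any one T119 library (adjusted p up to 0.106). The gastric peptide Tff1 was at 3.03 and 4.19 TPM in d2-FVFp and at 0 in the 7 other libraries of the fit, and Tff2 at 1.01 and 1.08 TPM with 0 in d3con, but neither passed the filter. Of the rest, Nkx2-1, Sftpb, Sftpc and Scgb1a1, which mark lung, were at 0 in all 5 libraries. Prox1, a factor of liver and pancreas precursors, was held by both states, at 1.39 and 2.25 TPM and at 0.98, 5.45 and 1.33 TPM.

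Further genes that stood high in d2-FVFp were chosen by the size of their difference. Upk1b, a uroplakin of the bladder surface, was at 12.3 and 32.1 TPM and at 0 in d3con, at least 142-fold higher. Bhmt, the liver and kidney enzyme that remethylates homocysteine, was at 7.78 and 6.61 TPM and at 0, at least 54.3-fold higher. Upk1b rose over 0.20 and 0.22 TPM in d2-FVFn and Bhmt over 0 and 0.09 TPM, and both calls were lost without any one T119 library. Like Fgb, Kng1, Psca and Cdx2, they fell below the filter and could not be tested without either d2-FVFp library. Pla2g7, a secreted lipase that inactivates platelet-activating factor, was kept in every comparison with each library left out in turn. It was at 110 and 145 TPM in d2-FVFp over 3.36 and 2.88 TPM in d2-FVFn, and at 1.35, 1.99 and 2.27 TPM in d3con, below 40.7 and 32.4 TPM in d0con. It rose by 5.28 ± 0.25 in the forced response (adjusted p = 5.5e-05, edgeR) and fell by 4.50 in the natural one (adjusted p = 1.2e-06, edgeR). AW112010, an interferon-linked transcript, was at 63.5 and 121 TPM in d2-FVFp and 2.59, 1.41 and 0.97 TPM in d3con and at 0 in all 4 reference libraries. It was at least 221-fold over d2-FVFn and at least 4.33-fold over d0con, while of the other 5 tested interferon genes none was called higher in d2-FVFp.

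In lipoprotein assembly, 2 of 7 tested genes were higher in d2-FVFp than in d3con (15.4% of all tested genes). Without either d2-FVFp library only 5 passed the filter, so the count is a description only. Apom was at 5.76 and 6.75 TPM against 0.52, 0.14 and 0.47 TPM, and Apoc2 at 5.46 and 4.47 TPM against 0.63, 0.14 and 0.58 TPM. Apoe, at 1770 and 962 TPM and at 1450, 712 and 1180 TPM, was abundant in both. The yolk sac and liver genes Afp and Ttr were under 0.7 TPM in all 5 libraries and did not pass the filter. In the extraembryonic endoderm list, 1 of 10 tested genes was higher in d2-FVFp, the endocytic receptor Lrp2 (8.56 and 8.17 TPM against 0.21, 0.56 and 0.09 TPM), which was as high in d2-FVFn at 10.3 and 14 TPM. The retinol carrier Rbp4 was held by both states, at 10.5 and 12.6 TPM and at 22.0, 9.52 and 18.5 TPM.

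The genes furthest below d3con in the forced cells came from several cell types. Pga5, a pepsinogen, was at 0 and 0.58 TPM against 1140, 164 and 924 TPM. The apelin receptor Aplnr, of mesendoderm and early vessels, was at 0 in both forced libraries and at 6.79, 77.4 and 16.8 TPM in d3con, at least 333-fold. Samd3 was at 0 against 63.4, 33.5 and 78.5 TPM, at least 311-fold, and was also at 0 in d0con and d2-FVFn. The glucokinase regulator Gckr was at 0 against 15.1, 1.28 and 12.1 TPM, at least 54.0-fold. Aplnr was highest in clone C63, in which Pga5, Samd3 and Gckr were lowest. Kcnj5, Irs4 and Akr1c19, named for a smaller response in the forced cells, were also lowest in C63, at 3.83, 3.08 and 5.78 TPM against 13.5 TPM or more in its partners, and at or under 0.24 TPM in d2-FVFp. The values of Pilrb2 and of the antisense transcript Peg3os, both at 0 in d2-FVFp, are uncertain because they share sequence with a relative or an overlapping gene.

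Mesoderm and vessel genes also stood higher in d3con. Of 9 tested lateral and cardiac mesoderm genes, 5 were lower in d2-FVFp and 0 higher (median -3.76, or -2.95 with genes at 0 set to their bound). The atrial myosin light chain Myl7 was at 51.9, 91.6 and 100 TPM in d3con and 5.62 and 6.64 TPM in d2-FVFp, the Vegf receptor Kdr at 6.23, 9.28 and 5.49 TPM against 0.24 and 0.40 TPM, and Hand2 at 1.60, 1.15 and 1.58 TPM against 0, at least 9.06-fold. Of 8 tested endothelium and blood genes 5 were lower, among them Gata1, an erythroid factor, at 62.7, 23.2 and 74.6 TPM in d3con and 2.43 and 2.36 TPM in d2-FVFp. The cell adhesion gene Pecam1 went the other way, at 33.4 and 23.0 TPM in d2-FVFp and 2.27, 1.08 and 2.9 TPM in d3con, with 52.3 and 33.1 TPM in d2-FVFn. Of 3 tested neuroectoderm genes 1 was higher in d2-FVFp, Pax6 (2.57 and 2.37 TPM against 0.07, 0.04 and 0.06 TPM), below its 3.98 and 4.59 TPM in d2-FVFn. Fibroblast genes were lower in d2-FVFp for 6 of 8 tested (median -4.18), with Col1a2 at 0 and 0.02 TPM against 74.1, 12.8 and 47.7 TPM. Wnt3a, which the d3con feeders secrete and which was looked up after its values were seen, was at 18.1, 3.52 and 5.81 TPM in d3con and 0.05 and 0.21 TPM in d2-FVFp, and how much of it came from feeder RNA was not tested.

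The signalling read-outs differed pathway by pathway. Of 7 Nodal and Activin response genes, 4 were lower in d2-FVFp and 1 higher. The Nodal antagonist Lefty1 was at 97.9 and 122 TPM against 475, 699 and 672 TPM, and Lefty2 at 136 and 149 TPM against 877, 511 and 1300 TPM, although Lefty2 rose over d2-FVFn (37.2 and 55.0 TPM) by 1.56, a call lost without any one T119 library (adjusted p up to 0.181). Gdf3, a Nodal-related ligand made by stem cells, was the reverse, at 179 and 195 TPM against 4.59, 6.69 and 5.08 TPM. Nodal itself was at 57.4 and 50.3 TPM in forced cells grown without added Activin and at 103, 107 and 140 TPM in d3con.

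Of 10 Wnt response genes, 6 were lower in d2-FVFp and 1 higher. The feedback gene Axin2 was at 0.72 and 0.69 TPM against 5.39, 8.59 and 5.40 TPM, and the target Sp5 at 1.82 and 3.94 TPM against 84.1, 65.1 and 75.3 TPM. Notum, a Wnt deacylase, was at 6.64 and 4.28 TPM against 0.72, 0.14 and 0.52 TPM. For Fgf, 5 of 14 genes were higher in d2-FVFp and 2 lower. The lower ones were the ligands Fgf5 and Fgf8, and the higher ones, besides Fgf4, were feedback and target genes of the Erk kinase: Dusp6 at 211 and 230 TPM against 37.7, 97.9 and 41.1 TPM, Etv5 at 298 and 196 TPM against 28.7, 102 and 35.8 TPM, Spry4 at 43.9 and 30.4 TPM against 16.1, 12.6 and 13.9 TPM, and Etv4, whose log2 difference was under the limit without d3con replicate 2 and whose adjusted p was 0.0556 without d2-FVFp replicate 1. None of these Erk genes was called over d2-FVFn.

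Genes of simple epithelium were held by both states, with 1 of 12 higher in d2-FVFp and 3 lower (median -0.27). E-cadherin, Cdh1, was at 540 and 657 TPM in d2-FVFp and 455, 483 and 598 TPM in d3con. N-cadherin, Cdh2, was at 6.62 and 9.02 TPM against 78.8, 68.3 and 129 TPM (log2 difference -3.62 ± 0.37, adjusted p = 9.55e-05, edgeR), and the intermediate filament gene Vim at 34.1 and 49.7 TPM against 263, 179 and 167 TPM. In the list of 8 genes of epithelial to mesenchymal transition, 5 were lower in d2-FVFp and 0 higher, and none was called in the forced response. Feeder fibroblasts also express Vim and Cdh2, and the part of the feeder RNA in these values was not tested. The tight junction gene Cldn4 rose in the forced response, to 100 and 161 TPM over 37.3 and 33.8 TPM, and fell in the natural one, to 32.5, 21.6 and 20.8 TPM from 49.5 and 45.8 TPM. Its forced call was lost without d2-FVFp replicate 2 or either d2-FVFn library (adjusted p up to 0.0772). The epithelial factor Grhl2 fell in both, to 5.59 and 4.93 TPM from 23.7 and 19.1 TPM, and to 7.34, 6.28 and 9.12 TPM from 28.0 and 26.7 TPM (difference -0.04 ± 0.27), and both calls were kept without each library in turn. Of 10 basement membrane genes 2 were higher in d2-FVFp and 4 lower (15.4% and 15.7% of all tested genes). The basement membrane linker Nid1 was higher in d2-FVFp (26.6 and 41.7 TPM against 10.8, 10.4 and 11.6 TPM) and the laminin genes Lamb1 and Lama5 in d3con (145, 89.2 and 167 TPM against 31.3 and 30.0 TPM for Lamb1).

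Of 12 glycolysis and hypoxia genes, 7 were higher in d3con and 0 in d2-FVFp (median -1.54). The glucose transporter Slc2a3 was at 2350, 2560 and 3280 TPM in d3con and 636 and 798 TPM in d2-FVFp. Vegfa was at 73.7, 46.3 and 62.9 TPM against 21.5 and 15.2 TPM. Of 12 cell cycle genes, 3 were higher in d2-FVFp. They were Ccne1 (294 and 184 TPM against 33.4, 50 and 27.5 TPM), Ccnd1 and the cell cycle inhibitor Cdkn1a, which stood at 129 and 221 TPM in d2-FVFp over 58.8 and 73.2 TPM in d2-FVFn, against 62.0, 42.4 and 64.0 TPM in d3con. The proliferation gene Mki67 was 0.98 lower in d2-FVFp, just under the limit. Among 9 imprinted genes, 3 were higher in d2-FVFp and 1 lower. Between the references, 6 of the 9 were already higher in d2-FVFn than in d0con (6.37% of all tested genes), and 0 were called in the forced response. The growth factor Igf2 was at 1.52 and 1.72 TPM in d2-FVFp and 88.0, 74.4 and 90.8 TPM in d3con, while H19, from the same imprinted region, was at 3.13 and 3.81 TPM against 0.91, 0.33 and 0.47 TPM. Of 5 tested trophoblast genes 1 was higher in d2-FVFp (Cdx2) and 1 lower (Ascl2, lost without d2-FVFp replicate 2, adjusted p = 0.12). Of 8 housekeeping genes 1 was called, Gapdh, and its call was lost without any one of the 9 libraries except d3con replicates 2 and 3.

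The promoters of the shared risers were searched for the Foxa core letters in RefSeq sequence (GRCm38.p6, 250 bases before to 50 after the start, both strands), which 267 of the 359 genes had. The letters TGTTTAC stood in 13 of the 267 (4.87%), in 55 of 1966 genes that rose in the natural response alone (2.80%), in 5 of 164 that rose in the forced response alone (3.05%) and in 315 of all 10381 tested genes with a promoter (3.03%). The variant TATTTAC stood in 10 of 267 (3.75%), in 1.48%, in 2.44% and in 1.78%. The 2 sites shown are in genes of the lists with a forced call, with the matched letters in capitals, read on the strand of the gene. Of the 2 genes, Pdgfra stood lower in d2-FVFp than in d3con.
Pdgfra promoter, chr5:75152244-75152272 (GRCm38), plus strand, with the match centred 7 bases after the start: ttcctgacagcTATTTACtttaagcaaat
Rbp4 promoter, chr19:38125545-38125571 (GRCm38), minus strand, with the match on the opposite strand and centred 238 bases before the start: aaatgcatgGTAAACActtggcaatta
Pdgfra, a receptor of primitive endoderm and mesoderm, was at 0.57 and 1.99 TPM in d2-FVFp, 0.14 and 0.07 TPM in d2-FVFn and 9.70, 17.0 and 25.9 TPM in d3con. Its forced call was lost without d2-FVFp replicate 2 or either d2-FVFn library (adjusted p up to 0.141), and that of Rbp4 without any one T119 library (adjusted p up to 0.122). A match of this length is a description of the letters and not a bound site.

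Within-library ranks gave the same order without any scaling between lines. A rank of 100 marks the most abundant of the 24054 genes. Foxa2 ranked at 95.2 and 94.7 in d2-FVFp and at 88.2, 81.6 and 86.1 in d3con. The median over the 15 naive genes was 82.1 and 74.5 against 58.3, 53.4 and 58.2, and that over the 13 streak genes 48.5 and 48.2 against 77.4, 87.8 and 79.5. Over the 13 anterior endoderm genes it was 60 and 59.7 against 96.4, 84.6 and 96.4. Forced cells thus placed their streak genes near the middle of all genes. Keratins shared the top of both, with Krt8 at 98.5 and 99.7 against 99.5, 99.1 and 99.5, as did Trh, at 99.7 or above in all 5. Fgb ranked at 91.5 and 96.1 against 14.9, 33.9 and 16.0, where the lowest ranks are shared by all genes at 0. Of all 24054 genes, 10813 (45.0%) had no overlap between the d2-FVFp and d3con libraries. The 500 most abundant genes of a forced and a natural library shared 77.6% in the median pair (range 74.6 to 79.8%). A forced and a Venus-negative library shared 89.2%, a forced and a d0con library 86.6%, the 2 forced libraries 92.8% and pairs of natural libraries 89.2 to 91.2%.

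**Figure D4:**
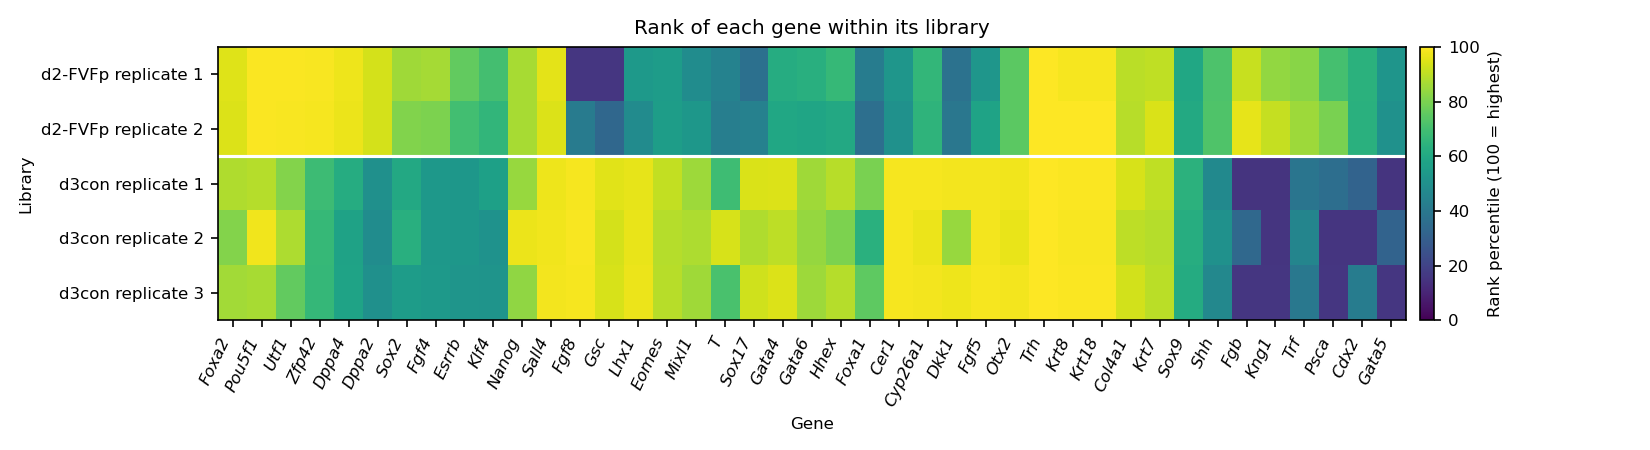
Rank percentile of 41 genes within each of the 2 d2-FVFp and 3 d3con libraries, with 100 for the most abundant of 24054 genes. Pou5f1, Utf1, Zfp42 and Dppa2 rank higher in both d2-FVFp rows, Fgf8, Sox17 and Cer1 rank higher in the 3 d3con rows, and Krt8, Krt18 and Trh rank at the top of all 5.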

How the data were processed

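RNA of sorted cells was amplified with a low-input template-switching kit, and the authors aligned reads with STAR to mouse mm10 (GRCm38) and quantified genes with RSEM, with versions not given in the sources used here. The deposited files hold expected counts and TPM per gene for each library; FPKM columns were not used. Expected counts were rounded. With edgeR 4.0.16 (R 4.3.3), 9 libraries of d2-FVFp, d2-FVFn, d3con and d0con entered 1 fit (TMM scaling, at least 1 CPM in at least 2 libraries, quasi-likelihood F test, Benjamini-Hochberg adjustment, no covariates), and knockout libraries stayed out. Standard errors are the log2 fold change over the root of F. Alternatives used DESeq2 1.42.0 and limma 3.58.1. The study's own tests were pairwise. On simulated data of 13943 genes with 200 changed 4-fold, 74.5% were recovered between d2-FVFp and d3con with 12 false calls, and 57% for the difference of the responses with 10. Apart from these 200 changes in d2-FVFp, all simulated libraries had the same mean for each gene. Far more genes differ in the data, so these rates need not hold there.

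Members, gene lists and tests were chosen with earlier results of these data known. Named genes were list members, the 8 largest differences in each direction between the states, the 6 in each direction between the responses, and the 8 shared risers with the largest smaller response. These rankings left out predicted genes and mean TPM under 5. Genes whose d2-FVFp and d3con libraries overlap were left out of the differences but not of the shared risers. Counting intervals (95%) and floors (3 counts per library) cover counting error only; reads carry no molecular identifiers. Results for some genes of the lists are not reported here.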

Additional observations from a re-analysis of the deposited data

Results flagged for a closer look

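The difference between the forced response (d2-FVFp against d2-FVFn) and the natural response (d3con against d0con) was itself tested in edgeR. It was called higher in the forced response for 1857 of 13943 genes (13.3%) and lower for 1948 (14%). For 92 genes both responses were called, in opposite directions, and their difference was called too.

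Among the genes followed by name, 9 were of this kind. Rising in the forced and falling in the natural response, on the log2 scale of the difference, were Psca (13.97), Kng1 (12.26), the lipase gene Pla2g7 (9.78), the iron carrier gene Trf (5.98), the T-box gene Tbx3 (3.68) and the claudin gene Cldn4 (2.93). Falling in the forced and rising in the natural response were the epiblast ligand Fgf5 (-9.03), the repressor gene Prdm1 (-3.71) and the vessel factor Etv2 (-3.12). Of the 9, the forced calls of Pla2g7 and Prdm1 were kept with every library left out in turn. Kng1 and Psca could not be tested without either d2-FVFp library, because too few libraries then passed the filter. Their fitted values rest on a group at 0 counts (Psca in d2-FVFn, Kng1 in d3con) and are no bound. Counting gives at least 57.6-fold for Psca in the forced response. The natural fall of Kng1 rests on 8 counts in d0con against 0 in d3con, at least 1.5-fold, and was not called without d0con replicate 2 (adjusted p up to 0.107).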

How the results depend on the processing

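Of 172 genes followed by name and called between d2-FVFp and d3con, 127 kept their call in every alternative, 45 lost it in at least 1 and 0 reversed. Of 136 called for the difference of the responses, 80 kept it, 56 lost it and 1 reversed. That gene was Foxa2, at -2.29, but 0.14 with limma on log2(TPM + 1) with or without the filter (adjusted p 0.776 and 0.802). In both d0con libraries Foxa2 was below the 1 TPM that these fits add, and the part of this in the change was not tested.

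Counts are given as higher, then lower. Tested against a 2-fold change in place of 0, the counts were 1330 and 1085 between the states, 123 and 93 between the references, 133 and 4 in the forced response, 1985 and 1366 in the natural response and 951 and 849 for the difference, with 72 shared risers. At an adjusted p under 0.01 they were 369 and 333 between the references, 234 and 19 in the forced response, 1123 lower for the difference and 130 shared. With all 14 libraries in the fit, the forced response gave 428 and 42 and the shared risers were 230. Genes lower in the forced response numbered 150 with DESeq2, 190 with only the compared groups (with 901 higher), 63 with limma on log2(TPM + 1), 53 on log2(TPM + 0.1) and 39 without the filter. The limma fits also gave 430 (378 without the filter) lower between the references, 1424 (1403) lower in the natural response and 224 shared without the filter.

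Leaving out 1 library at a time, the forced response ranged from 131 to 919 higher and 19 to 210 lower, the references from 297 to 1225 and 214 to 826, and the shared risers from 76 to 510. The lowest forced counts came without d2-FVFn replicate 1 and the next, 146 and 22, without replicate 2. All the highest of these counts came without d3con replicate 2. The labels do not say that same-numbered libraries share a culture, and there were only 2 pairs, whose deviations correlated at 0.25 in the forced response and from -0.09 to 0.06 in the other comparisons, so the tests were kept without the block. With the replicate block the forced response gave 580 and 98, the states 1968 and 2022, the natural response 2914 and 2089, the references 864 and 669, the difference 1687 and 1703, and the shared risers 301. In 3 of the 4 groups there were 2 libraries, and genes near the filter rest on few counts.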
